A study of Homo sapiens with 22 samples.

Results

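Cluster 1 of the drug treatment experiment held 6483 of the 40021 WM989 cells that the authors kept, and it was taken as the cells to which the authors' own clustering gave the number 1. It was 1 of 13 clusters, 11 of which were non-primed and 2 primed, and none of its cells was called primed. It came with 4 marker genes, HIST1H1A, HIST1H1B, HIST1H3D and HIST2H2AC, all of them replication-dependent histone genes. The whole experiment counted 35944 non-primed cells. The second cluster rich in histone transcripts, cluster 8, held 2159 cells, and the largest non-primed cluster, cluster 0, held 9017.

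WM989 is a human melanoma cell line with an activating BRAF mutation, and the clone used here, WM989 A6-G3, was bottlenecked from single cells, so that all libraries descend from 1 clone. The study asked whether signalling inputs move melanoma cells between a drug-susceptible state and a primed state from which resistance to targeted therapy arises. Cells carrying lineage barcodes were expanded from a sorted well, divided among 4 plates and left untreated (Control) or given 5 ng/mL TGFB1, the TGF-beta receptor inhibitor LY2109761 (TGFBRi, 4 µM) or the PI3K inhibitor GDC-0941 (PI3Ki, 2 µM) for 5 days. Each arm had 2 replicates, named r1 and r2 in the cell table, which gave 8 libraries of droplet scRNA-seq. The replicates came from parallel wells of the same clone, so p-values below cover the spread between such wells only. The sample labels call the replicates Mix and Primed, and which of these is r1 and which r2 was not settled from the sources used here. Whether the replicates differed in starting population was not settled either. Primed cells in r1 and r2 made up 2.26% and 4.47% of Control and 29.1% and 31.3% under TGFB1. They made up 2.26% and 4.32% under TGFBRi and 0.647% and 1.21% under PI3Ki. Each agent was used at 1 dose.

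Replication-dependent histone genes encode the core histones H2A, H2B, H3 and H4 and the linker histone H1 that package newly made DNA, and their transcripts accumulate while DNA is replicated and are degraded when replication ends. Most of these transcripts end in a conserved stem-loop bound by SLBP in place of a poly(A) tail. The library chemistry primed on poly(A), so a histone UMI here counts the part of the transcripts that the oligo-dT primer could reach, and levels were compared between cells and not between genes. Transcription of these genes is coordinated by NPAT downstream of cyclin E and CDK2.

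The promoters of the 4 markers are shown because these genes mark the cluster, and that of VGF because it is the gene that differed most between the 2 histone-rich clusters. They are RefSeq sequences on GRCh38.p14 from 250 bases before to 50 bases after the annotated start, on the strand of the gene. Capitals mark CCAAT (the CCAAT box), TATAAA (the TATA box), ATTTGCAT (the octamer), AAACACA (a motif of H1 promoters) and TGACGTCA (the cyclic AMP response element), each searched on both strands, so that a capital run may also be the reverse complement of one of them.
HIST1H1A, now H1-1, chr6:26017738-26018037, minus strand: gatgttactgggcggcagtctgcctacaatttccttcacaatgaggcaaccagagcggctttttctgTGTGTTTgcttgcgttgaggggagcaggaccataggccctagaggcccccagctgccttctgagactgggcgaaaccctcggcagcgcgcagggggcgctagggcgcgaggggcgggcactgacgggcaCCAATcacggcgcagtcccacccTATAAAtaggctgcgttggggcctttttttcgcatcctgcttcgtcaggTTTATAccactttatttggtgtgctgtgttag
HIST1H1B, now H1-5, chr6:27867539-27867838, minus strand: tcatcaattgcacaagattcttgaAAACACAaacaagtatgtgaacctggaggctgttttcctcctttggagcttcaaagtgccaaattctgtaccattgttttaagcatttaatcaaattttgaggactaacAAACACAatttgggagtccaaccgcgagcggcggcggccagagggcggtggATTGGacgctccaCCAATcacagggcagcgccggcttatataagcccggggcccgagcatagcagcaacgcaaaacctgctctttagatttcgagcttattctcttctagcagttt
HIST1H3D, now H3C4, chr6:26197237-26197536, minus strand: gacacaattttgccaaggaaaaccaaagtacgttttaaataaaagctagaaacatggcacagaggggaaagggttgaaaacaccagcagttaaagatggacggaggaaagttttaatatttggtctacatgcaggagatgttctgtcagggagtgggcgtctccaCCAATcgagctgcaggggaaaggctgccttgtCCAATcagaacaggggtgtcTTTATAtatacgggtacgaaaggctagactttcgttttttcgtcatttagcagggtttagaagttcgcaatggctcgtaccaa
HIST2H2AC, now H2AC20, chr1:149886668-149886967, plus strand: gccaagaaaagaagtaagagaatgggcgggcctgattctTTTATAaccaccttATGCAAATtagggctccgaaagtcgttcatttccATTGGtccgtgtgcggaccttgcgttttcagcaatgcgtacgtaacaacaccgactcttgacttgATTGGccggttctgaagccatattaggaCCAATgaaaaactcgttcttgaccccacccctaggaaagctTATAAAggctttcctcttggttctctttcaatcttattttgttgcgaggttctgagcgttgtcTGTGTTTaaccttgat
VGF, chr7:101165520-101165819, minus strand: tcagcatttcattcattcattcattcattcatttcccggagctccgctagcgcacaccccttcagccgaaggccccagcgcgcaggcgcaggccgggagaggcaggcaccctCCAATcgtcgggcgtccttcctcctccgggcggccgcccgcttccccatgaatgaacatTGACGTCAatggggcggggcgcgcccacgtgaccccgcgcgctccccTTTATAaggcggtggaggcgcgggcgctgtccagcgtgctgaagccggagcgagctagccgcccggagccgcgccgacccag

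Of the 70 replication-dependent histone genes in the count table, 65 matched a promoter. CCAAT was found in 84.6% of these histone promoters and in 34.6% of all 35116 promoters, TATAAA in 70.8% and 11.5%, and the octamer in 32.3% and 1.77%. AAACACA was found in 13.8% of the histone promoters against 5.64% of all, and TGACGTCA in 13.8% against 1.85%. In the promoters printed above, a CCAAT lay 54 bases before the start of HIST1H1A, 53 bases before those of HIST1H1B and HIST1H3D and 70 bases before that of HIST2H2AC. The VGF promoter was the only one of the 5 to hold TGACGTCA, 79 bases before its start. A match is a description of the letters and not a measured binding site.

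Stem-loops of the 4 markers and of HIST1H4C, the histone gene with the most UMIs, are shown because most histone transcripts end in one. They do not show that every transcript of these genes lacked a poly(A) tail. Capitals mark the paired stem, and the positions are on hg38.
HIST1H1A, chr6:26017037-26017052, minus strand: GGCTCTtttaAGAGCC
HIST1H1B, chr6:27866797-27866812, minus strand: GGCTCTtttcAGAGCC
HIST1H3D, chr6:26196789-26196804, minus strand: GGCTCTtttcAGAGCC
HIST2H2AC, chr1:149887391-149887406, plus strand: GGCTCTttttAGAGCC
HIST1H4C, chr6:26104317-26104332, plus strand: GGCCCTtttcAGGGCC

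A library held between 3692 and 6273 cells and between 70239657 and 122420544 UMIs, and the cluster 1 cells of a library summed to between 11545380 and 22072862 UMIs. The median cluster 1 cell held between 14559 UMIs (TGFBRi r2) and 25499 UMIs (Control r2). Most of 16 melanocyte genes were present in the cluster in every library, with SOX10 between 132 and 166 CPM (a gene's UMIs divided by all UMIs of the summed cells and scaled to 1e6), MITF between 320 and 408 and PMEL between 2150 and 3619, while TYRP1 (1.0 to 3.32 CPM), OCA2 (0.0528 to 0.322) and KIT (0 to 0.175) were near 0. Of 15 genes that mark other cell types, CD3E, KRT5, KRT14 and HBB were at 0 in all 8 libraries, and the 15 together summed to between 120 and 157 CPM, most of it from KRT18, CD68 and LUM. Of the 5 that could be tested between arms (edgeR, as described below), KRT18 was lower than in Control under TGFBRi (log2 -0.36) and LUM under PI3Ki (-0.48, and -0.30 without PI3Ki r1), calls that were each lost with a library left out, and their part in other changes was not tested. A cell barcode sequence (the tag of a droplet, not the lineage barcode) found in more than 1 library belonged to 51 of the 6483 cluster 1 cells.

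Cluster 1 had the highest histone level of the 13 clusters. Its summed CPM over the 70 histone genes was 7177 and 6611 in Control, 6534 and 5967 under TGFB1, 6746 and 6859 under TGFBRi and 6003 and 5258 under PI3Ki (r1 and r2 in each case). Cluster 8 lay close to it, between 5156 and 6722 CPM, and the 9 other non-primed clusters together lay between 876 and 1162 CPM. In no library did the 9 other clusters, summed, reach either histone-rich cluster, as the plot of summed histone CPM shows. Pooled over libraries, the highest of the other clusters were the primed cluster 4 at 2658 CPM and the non-primed cluster 12 at 2500 CPM, against 6376 CPM in cluster 1. Within a library, cluster 1 held between 5.62 and 7.05 times the histone CPM of the other non-primed clusters (6.28 ± 0.522, SD, n = 8) and between 0.971 and 1.23 times that of cluster 8 (1.08 ± 0.0795, SD, n = 8). Since the clusters were called from these same counts, this and every comparison of levels between clusters below is a description without a test.

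**Figure D1:**
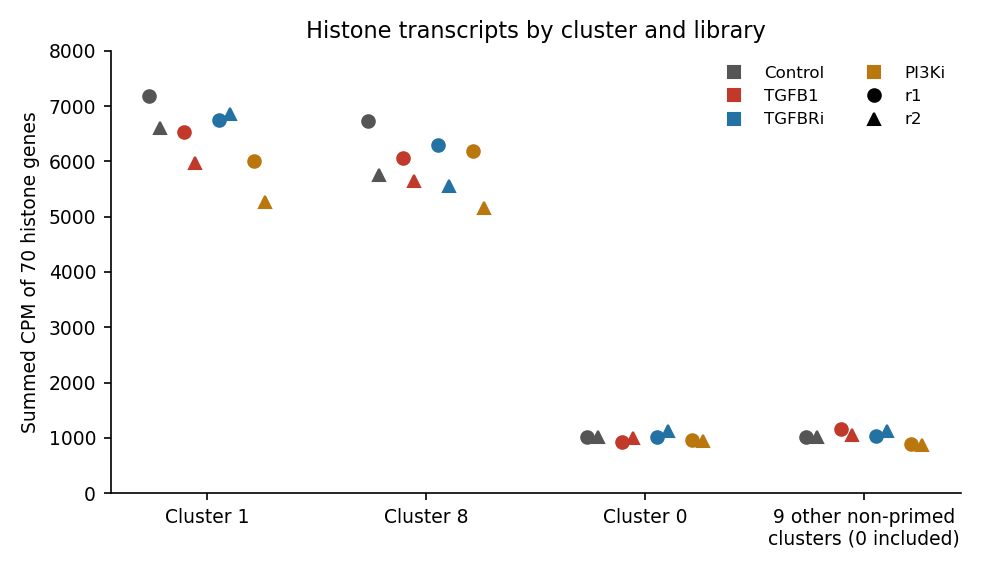
Summed CPM of the 70 replication-dependent histone genes (vertical axis) in cluster 1, cluster 8, cluster 0 and the 9 other non-primed clusters together, with 1 point for each of the 8 libraries. Cluster 1 and cluster 8 sit between 5156 and 7177 CPM and the others between 876 and 1162 CPM.

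The difference was seen in the median cell and not only in sums, while single cells overlapped. With every cell thinned to 5000 UMIs, the median cluster 1 cell held 32 histone UMIs (10th to 90th percentile 18 to 49). The median cluster 8 cell held 29 (15 to 44), while the medians of the 9 other non-primed clusters lay between 3 and 6. Their 90th percentiles lay between 6 and 29, highest in cluster 12, and that of the primed cluster 4 was 39. A UMI of HIST1H1B was found in 90.0% of thinned cluster 1 cells, in 86.2% of cluster 8 cells and in 8.30% to 36% of the cells of the other non-primed clusters. The same shares for HIST2H2AC were 74.9%, 68.8% and 6.48% to 33.3%, for HIST1H3D 54.8%, 52.0% and 3.66% to 21.1%, and for HIST1H1A 24.4%, 19.4% and 0.637% to 7.02%. Before thinning, at a median of 19975 UMIs per cluster 1 cell, 19239 in cluster 8 and 13128 to 30290 in the others, the HIST1H1B shares were 99.5%, 98.1% and 24.2% to 57.3%, and the HIST1H1A shares 52.8%, 44.7% and 3.06% to 17.5%. These shares were pooled over libraries. For all 4 markers they were higher in the histone-rich clusters than in the other non-primed clusters at equal depth. For each marker the shares in cluster 1 and cluster 8 lay close together, with cluster 1 the higher. By CPM within each library, 1 of the 4, HIST1H1A, was higher in cluster 1 than in cluster 8 in all 8 libraries.

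The name S phase was borne out by the authors' phase calls only in part. Of the 6483 cells, 3535 (54.5%) were called S, 2912 (44.9%) G2M and 36 (0.555%) G1. The S share was between 52.2% and 60.0% in every library, highest in TGFB1 r2 and lowest in PI3Ki r2. G2M-called cluster 1 cells held a median of 33 histone UMIs per 5000 and S-called ones 30. Nor did the cluster take in all S-called cells, since 26.0% of these and 26.3% of G2M-called cells of the experiment fell in cluster 1, against 0.235% of G1-called cells. The cells are therefore called by their histone level here, as histone-rich cluster 1.

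Against the other non-primed clusters, histone genes filled the upper end of the ranking. Ratios were taken for the 5741 genes that reached 20 CPM in cluster 1 or in the others. Of these, 86 were more than 1 log2 unit higher and 4 more than 1 lower in the mean over libraries of the log2 ratio of CPM plus 1. A gene was counted as higher or lower when all 8 libraries had that direction, which 25.2% of genes met for higher and 22% for lower. Of the 21 histone genes at that level, 20 were higher and 1 was lower, with a median log2 ratio of 2.68. The 15 genes at the top were all histone genes.

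The linker histones, which bind the DNA between nucleosomes, held the 2 highest ratios. HIST1H1A stood at 58.7 and 96.0 CPM in the cluster 1 cells of Control, against 2.98 to 6.83 CPM in the other non-primed cells of the 8 libraries, a log2 ratio over the 8 libraries of 3.48 ± 0.28 (SD). HIST1H1B stood at 687 and 751 CPM in Control against 39.9 to 72.5 CPM elsewhere (3.40 ± 0.24). HIST1H1D (2.60 ± 0.12), HIST1H1C (2.45 ± 0.20) and HIST1H1E (2.28 ± 0.11) followed at lower ratios.

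Among the core histones, HIST1H3D was at 112 to 203 CPM in cluster 1 over the 8 libraries and at 10.7 to 20.6 CPM in the other non-primed cells (3.20 ± 0.25). HIST1H2AH had a log2 ratio of 2.96 ± 0.29 and HIST2H2AC of 2.88 ± 0.17. HIST1H4C, which encodes histone H4, was at 2487 to 3241 CPM in cluster 1 and 366 to 522 CPM elsewhere (2.70 ± 0.11). The class medians were 2.92 for H3, 2.68 for H4, 2.60 for H1, 2.46 for H2A and 2.0 for H2B. Genes of a histone class share long stretches of coding sequence, and reads from near-identical copies may have been divided among them or dropped, so that single values are uncertain to that degree.

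The least histone-like member was HIST3H2A, at 18.8 to 22.2 CPM in cluster 1 and 25.9 to 42.7 CPM elsewhere, a log2 ratio of -0.61 ± 0.31. HIST1H2AC, a gene known to give polyadenylated transcripts as well, also had a small ratio of 0.93 ± 0.40. Replacement histones, most of which can be deposited outside replication and have tailed mRNA, were higher in 9 of 10 with a median of 0.29. H2AFX, the variant that is phosphorylated at DNA breaks, and the linker H1FX led this group.

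Genes of DNA replication and of mitosis were also higher. Of the S phase list used by Seurat for phase calls, 35 of 40 measured genes were higher and 1 lower (median 0.79), beside 25.2% and 22% of all genes, and of its G2M list 42 of 49 were higher and 1 lower (median 0.59). All 13 measured genes of a G1/S and nucleotide synthesis list were higher, led by RRM2, the regulated subunit of ribonucleotide reductase, at 190 to 278 CPM in cluster 1 against 38.5 to 68.6 CPM elsewhere (2.10 ± 0.17). TYMS, which makes thymidylate, followed at 88.5 to 122 CPM against 29.9 to 50.2 CPM (1.26 ± 0.25). Of the checkpoint and repair list 10 of 13 were higher (median 0.68), and of the histone chaperones, which carry histones to new DNA, 11 of 13 (median 0.33). Of the factors that make and process histone mRNA 3 of 9 were higher and 1 lower, near the shares over all genes, with a median of 0.08. SLBP itself was at 72.0 to 92.8 CPM in cluster 1 and 60.9 to 69.3 CPM elsewhere.

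The 15 genes at the lower end were of several kinds, with VGF and MYC among them. MYC, the growth regulator, was at 94.5 and 84.1 CPM in cluster 1 of Control, and over the 8 libraries it ran from 52.1 to 94.5 CPM in cluster 1 against 123 to 209 CPM in the other non-primed cells (-1.16 ± 0.10). EGR3 (-1.23 ± 0.30), JUNB (-0.72 ± 0.09) and SOX4 (-0.88 ± 0.17), which also encode transcription factors, were lower in all 8 libraries too. VGF, which encodes a secreted neuropeptide precursor, was the lowest of all at -1.28 ± 0.39, with 214 to 607 CPM in cluster 1 and 325 to 2349 CPM elsewhere. Set against cluster 0 alone, MYC (-1.31) was again lower in all 8 libraries, while VGF had a log2 ratio of -0.12 and was lower in 4 of 8.

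Cluster 8 lay close to cluster 1 in its histone genes and far from it in VGF. At the same minimum 5709 genes were measured, and none was more than 1 log2 unit higher in cluster 1 and 3 were more than 1 lower, namely VGF, SPRR2D and APOD. Of the 5709, 5.9% were higher and 11.7% lower in cluster 1 in all 8 libraries. Only 2 of 21 histone genes met that rule for higher and 0 for lower, with a median log2 ratio of 0.11 beside -0.02 over all genes.

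VGF was at 346 and 460 CPM in cluster 1 of Control, 214 and 441 CPM under TGFB1, 514 and 607 CPM under TGFBRi and 357 and 462 CPM under PI3Ki. In cluster 8 it was at 4109 to 4622 CPM in the 8 libraries. The groups were far apart in every library, with a log2 ratio of -3.41 ± 0.47 and a range of -4.41 to -2.91. After thinning, a VGF UMI was found in 58.2% of cluster 1 cells and in 100% of cluster 8 cells, and before it in 80.7% and 100%. The highest share among the other non-primed clusters was 99.95%, in cluster 2, whose VGF level over all libraries was 4665 CPM and whose cells were mostly called G1 or S. Cluster 0 held VGF at 440 CPM and cluster 1 at 428 CPM.

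Beside VGF, cluster 1 held less SPRR2D, a cornified envelope protein, at 2.38 to 15 CPM against 16.9 to 48.1 CPM in cluster 8 (-1.67 ± 0.41). APOD, a lipid carrier, was at 7.88 to 20.9 CPM against 16.7 to 87.7 CPM (-1.14 ± 0.38), and SERGEF at 15.1 to 35.9 CPM against 33.7 to 74.9 CPM (-0.95 ± 0.25). IER3, an immediate early gene, was at 184 and 228 CPM in cluster 1 of Control and at 296 and 328 CPM in cluster 8 (-0.70 ± 0.24 over 8 libraries). The proteoglycan gene GPC6 (-0.73 ± 0.27), the matrix gene ECM1 (-0.65 ± 0.20) and the mTORC1 inhibitor DDIT4 (-0.60 ± 0.29) were also among the 15 lowest.

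Genes higher in cluster 1 than in cluster 8 had smaller ratios. ID3, an inhibitor of basic helix-loop-helix factors, led with 0.86 ± 0.80, and its libraries ran from 0.14 to 2.35. FN1, the matrix protein fibronectin, followed at 0.78 ± 0.66. HMGCS1, an enzyme of the sterol pathway, was more even at 0.66 ± 0.26, with 27.4 to 50.3 CPM in cluster 1 against 15.9 to 32.3 CPM. The DNA helicase gene PIF1 was the most even of the 15, at 17.6 to 26.6 CPM against 10.9 to 15.7 CPM (0.66 ± 0.12). HIST1H1A was the 1 marker among the 15, at 0.48 ± 0.31. Of the sterol list 5 of 15 and of the G2M list 12 of 49 genes were higher in cluster 1 in all libraries, beside 5.9% of all genes, with medians of 0.08 and 0.10.

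**Figure D2:**
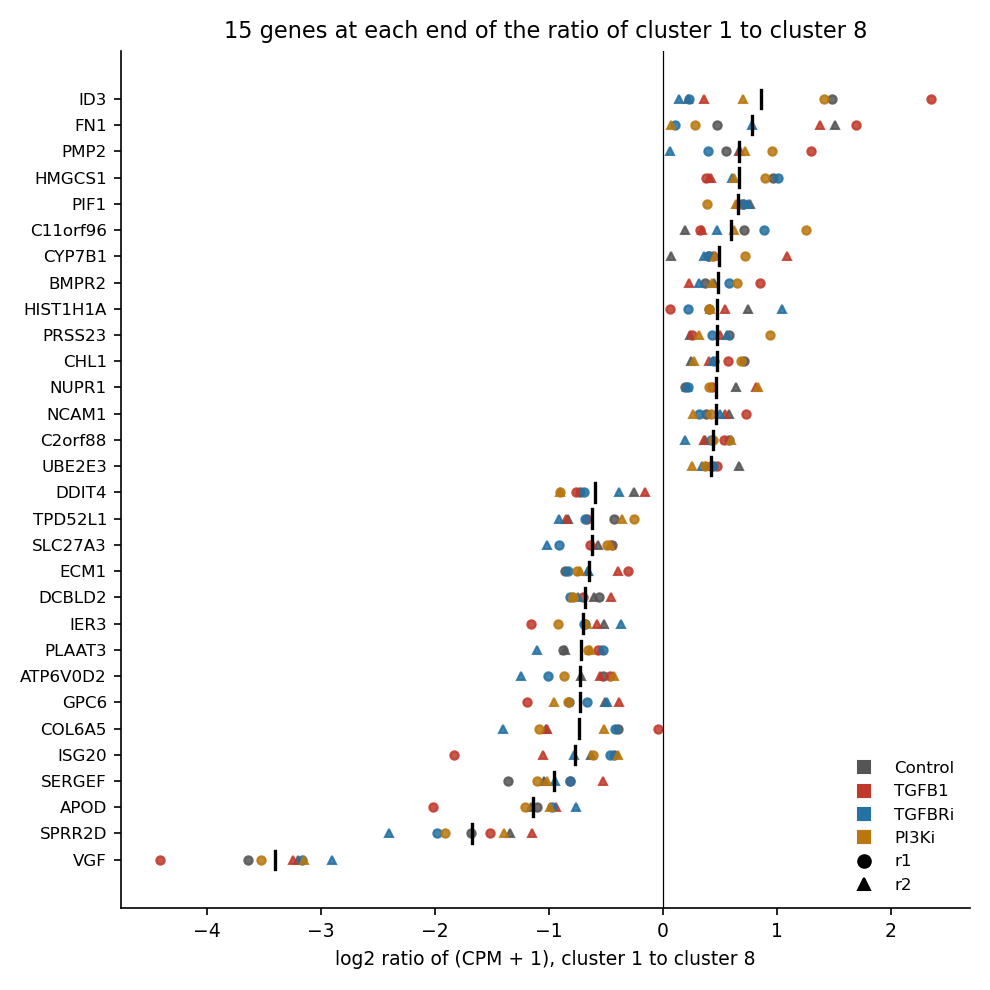
Log2 ratio of CPM plus 1 in cluster 1 to that in cluster 8 (horizontal axis) for the 15 genes at each end of the ranking, with 1 point per library and a bar at the mean of the 8 libraries. VGF lies between -4.41 and -2.91, apart from all other genes, and the genes above 0 reach at most a mean of 0.86.

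The share of cells in cluster 1 was lower under TGFB1 than in Control in both replicates, but a test over all 8 libraries did not pass. Cluster 1 held 21.0% (exact 95% interval 19.7% to 22.2%) and 18.6% (17.4% to 19.9%) of Control cells and 13.6% (12.7% to 14.6%) and 10.8% (10.0% to 11.7%) of TGFB1 cells. It held 20% (18.9% to 21.1%) and 14.7% (13.8% to 15.6%) of TGFBRi cells and 17.8% (16.6% to 19.0%) and 16.1% (15.1% to 17%) of PI3Ki cells. Both TGFB1 and both PI3Ki libraries lay below both Control libraries, TGFBRi overlapped Control and had the widest gap between replicates, and the intervals cover counting error only. The means were 19.8 ± 1.66% in Control, 12.2 ± 1.97% under TGFB1, 17.3 ± 3.74% under TGFBRi and 16.9 ± 1.19% under PI3Ki (SD, n = 2 each).

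The log2 ratio to Control of the same replicate was -0.62 and -0.78 for TGFB1, -0.07 and -0.34 for TGFBRi and -0.24 and -0.21 for PI3Ki. An exact permutation test of treatment within replicates gave p = 0.125, where the smallest p the design allows is 0.0417. The TGFB1 libraries held more primed cells than the others, and as a share of non-primed cells the mean log2 ratio of TGFB1 was -0.23 in place of -0.70 (exact permutation p = 0.25). As a share of the cells called S the test passed (exact permutation p = 0.0417), with mean log2 ratios of -0.18 for TGFB1, -0.28 for TGFBRi and -0.055 for PI3Ki. Histone levels within cluster 1 differed between the treatments as well, as given below, so which cells the border of the cluster took in and how many such cells there were cannot be told apart.

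The shares of cluster 8 were ordered in another way, and a test of cluster 8 alone did not pass (exact permutation p = 0.0833). It held 3.73% and 5.74% of Control cells, 1.14% and 2.23% under TGFB1, 7.25% and 11.7% under TGFBRi and 4.82% and 5.30% under PI3Ki. There were thus 5.61 and 3.24 cluster 1 cells for each cluster 8 cell in Control, 11.9 and 4.86 under TGFB1, 2.75 and 1.25 under TGFBRi and 3.69 and 3.04 under PI3Ki. Both TGFBRi libraries lay below both Control libraries on this ratio, while TGFB1 and PI3Ki overlapped Control. Cluster 1 and cluster 8 together held 24.7% and 24.3% of Control cells, 14.8% and 13.1% under TGFB1, 27.2% and 26.4% under TGFBRi and 22.6% and 21.4% under PI3Ki, and with this summed share the exact permutation p was 0.0417, the smallest the design allows. The TGFBRi ratio to Control turned from a mean of -0.21 for cluster 1 to 0.13 for the sum.

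**Figure D3:**
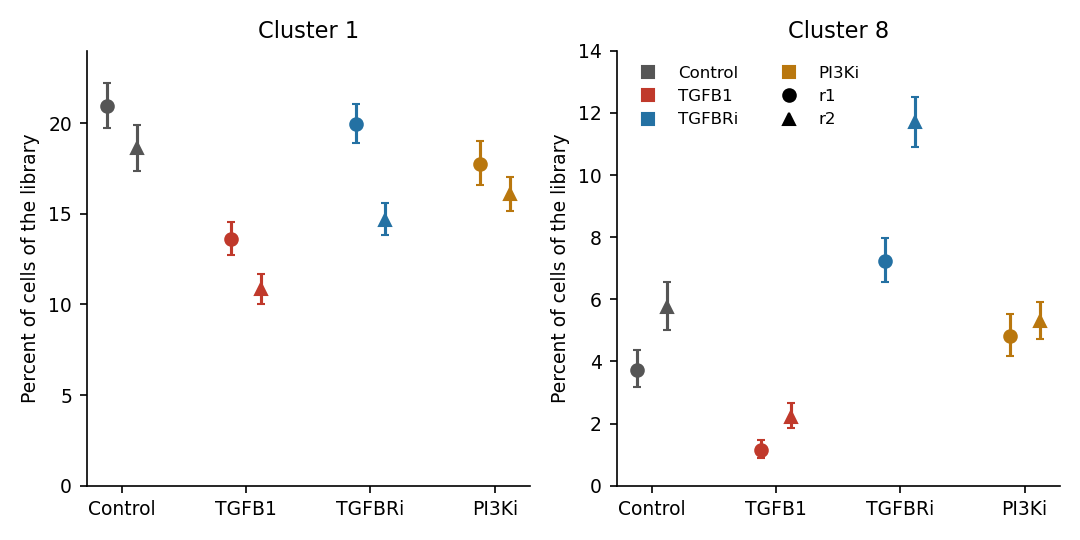
Percent of the cells of each library that fell in cluster 1 (left) and cluster 8 (right), with exact 95% intervals that cover counting error. For cluster 1 the TGFB1 libraries, at 13.6% and 10.8%, lie lowest, and for cluster 8 the TGFBRi libraries, at 7.25% and 11.7%, lie highest.

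Within cluster 1 cells, all 3 treatments changed genes relative to Control. Counts were summed per library over cluster 1 cells and tested with edgeR's quasi-likelihood test with terms for treatment and replicate, at an adjusted p under 0.05. Of 13842 genes tested, TGFB1 raised 796 (5.75%) and lowered 585 (4.23%), TGFBRi raised 135 (0.975%) and lowered 186 (1.34%), and PI3Ki raised 464 (3.35%) and lowered 572 (4.13%). The 3 comparisons share the 2 Control libraries. Without the replicate term the counts were 873, 146 and 560 in place of 1381, 321 and 1036, and DESeq2 called 558, 146 and 412. Leaving out Control r1, Control r2 or TGFB1 r1 left 676, 728 and 321 genes for TGFB1. Leaving out Control r1, Control r2 or TGFBRi r2 left 196, 166 and 195 for TGFBRi, and leaving out Control r1, Control r2, PI3Ki r1 or PI3Ki r2 left 486, 428, 404 and 242 for PI3Ki. Over the gene lists and the 10 largest changes in each direction, 76 genes were called for TGFB1, 34 for TGFBRi and 71 for PI3Ki, and 29, 22 and 25 of them kept their call with each library left out in turn. The 10 largest changes in each direction, here and below taken among called genes whose level averaged 10 CPM or more, were among these, apart from MIR3681HG under TGFB1.

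Levels of most histone genes within cluster 1 were lower under TGFB1 and PI3Ki than in Control, by modest amounts. The cluster was called from these same counts and is marked by histone genes. For these genes a shift of its border and a change inside the cells therefore cannot be told apart. Of 56 histone genes tested, 16 fell and 0 rose under TGFB1 (median log2 change -0.28, below 0 in 52), against 4.23% of all genes, and 21 fell and 0 rose under PI3Ki (median -0.34, below 0 in 51), against 4.13%. The median over all genes tested was -0.003 and -0.005. These counts and medians give each gene equal weight. Summed over the H4 genes, the class with the most UMIs, cluster 1 held 3271 and 2649 CPM in Control. This sum was higher under TGFB1, at 3355 and 2762 CPM, and lower under PI3Ki, at 2812 and 2588 CPM. The sums of H1, H2A, H2B and H3 were lower under TGFB1 in both replicates. Under TGFBRi 0 of 56 passed with edgeR and 0 with DESeq2, 13 had an unadjusted p under 0.05, and the median was 0.13. The counts rest on few libraries, since each of the 16 and of the 21 calls was lost with at least 1 library left out. Leaving out TGFB1 r1 left 1 gene for TGFB1 and leaving out PI3Ki r2 left 0 for PI3Ki, while DESeq2 called 6 and 8 and the fit without the replicate term 7 and 10. Leaving out Control r1, Control r2 or TGFB1 r2 left 8, 7 and 8 genes for TGFB1, and leaving out Control r1 or Control r2 left 9 and 11 for PI3Ki.

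Of the histone classes, the linker histones had the largest share of called genes. Of their genes 5 of 6 reached 20 CPM, against 6 of 17 for H2A, 2 of 18 for H2B, 4 of 14 for H3 and 4 of 15 for H4. The H1 class median was -0.35 under TGFB1, with the others between -0.22 and -0.32. Under PI3Ki it was -0.36, with the others between -0.14 and -0.38. Under TGFBRi it was -0.15, with all 5 tested genes below 0, while the other class medians were between 0.12 and 0.18. HIST1H1B was at 687 and 751 CPM in Control, 585 and 619 CPM under TGFB1, 636 and 567 CPM under TGFBRi and 575 and 494 CPM under PI3Ki. All 6 treated libraries lay below both Control libraries, and the change passed for TGFB1 (log2 -0.27 ± 0.08, SE, edgeR adjusted p = 0.0281) and for PI3Ki (-0.36 ± 0.08, edgeR adjusted p = 0.0037). The first call was lost without Control r2 (-0.16), TGFB1 r1 (-0.22) or TGFB1 r2 (-0.33), and the second without Control r2 (-0.25) or PI3Ki r2 (-0.27). HIST1H1D was at 1059 and 1131 CPM in Control, 829 and 905 CPM under TGFB1 and 848 and 766 CPM under PI3Ki (-0.35 ± 0.08 and -0.37 ± 0.08). Of the 5 linker genes tested, 5 fell under TGFB1 and 4 under PI3Ki. The exception, HIST1H1A, was at 58.7 and 96.0 CPM in Control, 56.9 and 67.5 CPM under TGFB1 and 57.1 and 65.9 CPM under PI3Ki. Both arms thus overlapped Control and lay close to each other. Its TGFB1 change of -0.30 ran from -0.48 to -0.10 with a library left out.

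Of 14 H2A genes 4 fell under TGFB1 and 6 under PI3Ki, of 17 H2B genes 1 and 5, of 9 H3 genes 4 and 4, and of 11 H4 genes 2 and 2. HIST2H2AC was at 409 and 337 CPM in Control and at 311 and 202 CPM under PI3Ki (-0.50 ± 0.08, edgeR adjusted p = 0.000124). Its r2 libraries were lower than its r1 libraries in every arm, and under TGFB1, at 379 and 261 CPM, it did not pass (edgeR adjusted p = 0.0527). HIST1H4I, at 21.2 and 16.4 CPM in Control and 12.2 and 12.2 CPM under TGFB1, had the largest called change of the histone genes under TGFB1 (-0.64 ± 0.12). HIST1H4C, at 3115 and 2521 CPM in Control and 2487 to 3241 CPM over all libraries, passed in no treatment (adjusted p 0.786 to 0.821). Of the 4 markers, HIST1H1A and HIST1H1B fell under TGFB1, and HIST1H1B and HIST2H2AC under PI3Ki. For the markers too, these falls cannot be told apart from a shift of the cluster border.

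**Figure D4:**
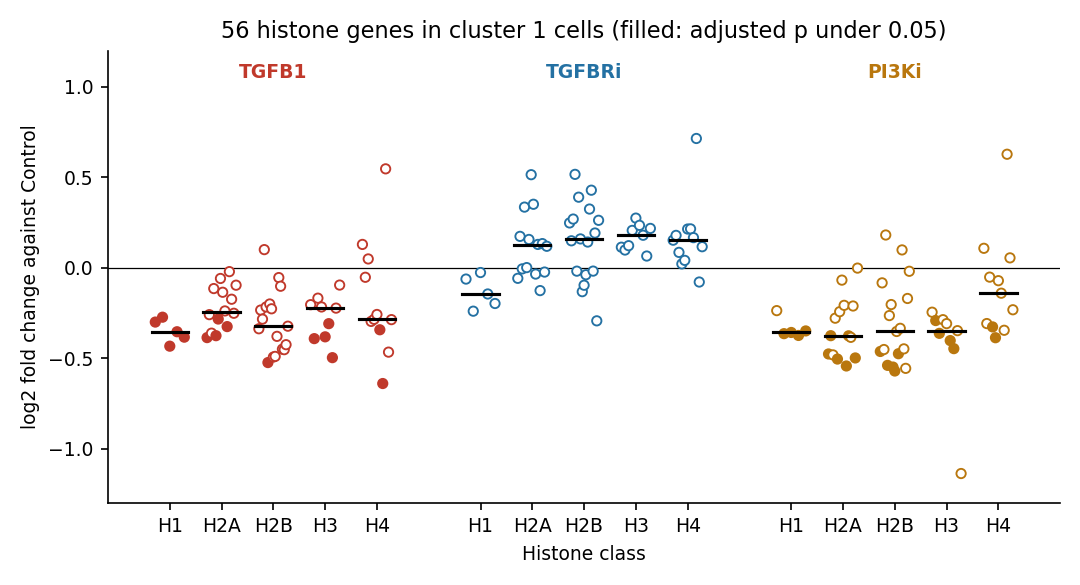
Log2 fold change against Control in cluster 1 cells (vertical axis) for the 56 histone genes tested, by histone class and treatment, with a bar at the class median and filled points for an edgeR adjusted p under 0.05. Filled points number 16 under TGFB1, 0 under TGFBRi and 21 under PI3Ki, and all of them lie below 0.

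Over all non-primed cells, where the share of cluster 1 and cluster 8 cells enters too, 19 of 57 histone genes fell and 0 rose under TGFB1, 0 fell and 2 rose (HIST1H3F and HIST1H3G) under TGFBRi, and 33 fell and 1 rose (HIST3H2A) under PI3Ki. Over all 17914 genes of that fit 8.56% rose and 6.32% fell under TGFB1, 1.22% rose and 1.59% fell under TGFBRi, and 5.89% rose and 6.22% fell under PI3Ki. The medians, at -0.28, 0.17 and -0.38, were near those inside cluster 1. In sums over a library's cells, fewer histone-rich cells and less histone RNA per cell cannot be told apart. Without the replicate block the called histone genes numbered 4, 0 and 6 in place of 19, 2 and 34. Without PI3Ki r2 the PI3Ki count was 4 in place of 34, without Control r2 it was 17, without Control r2 or TGFB1 r1 the TGFB1 count was 6 or 7 in place of 19, and without TGFBRi r1 the TGFBRi count was 19 in place of 2.

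Few partners of histone synthesis passed the test. Of 14 genes for histone mRNA synthesis and processing, LSM1 and LSM10 rose and SYMPK fell under TGFB1, beside 5.75% and 4.23% of all genes, and 0 passed under TGFBRi or PI3Ki by edgeR. SLBP was at 72.2 and 78.5 CPM in Control, 84.1 and 92.8 CPM under TGFB1 and 76.5 and 81.2 CPM under PI3Ki, so that both TGFB1 libraries lay above both Control libraries, and it did not pass (edgeR adjusted p = 0.0819 and 0.338). NPAT was at 38.2 and 40.6 CPM in Control, 31.2 and 38.8 CPM under TGFB1 and 40.8 and 45.1 CPM under PI3Ki, and did not pass either. Of 18 chaperones NAP1L1 fell under TGFB1 (-0.25 ± 0.08) and NAP1L4 rose under PI3Ki (0.30 ± 0.08, beside 3.35% of all genes). Of 10 replacement histones H1F0 fell under TGFB1 (-0.34 ± 0.09) and H1FX rose under TGFBRi (0.39 ± 0.08, beside 0.975% of all genes). Each of these 7 calls was lost with at least 1 library left out.

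While most histone genes were lower than in Control, genes of the G1/S transition rose under TGFB1. Of 16 tested, 7 rose and 0 fell, beside 5.75% and 4.23% of all genes, namely E2F1, E2F2, CCNE1, CCNE2, CDC6, TYMS and RRM2, and the median was 0.27. CCNE2, a cyclin E, was at 18.2 and 20.2 CPM in Control and 25.6 and 30.2 CPM under TGFB1 (0.52 ± 0.10, edgeR adjusted p = 0.000352). RRM2 was at 190 and 221 CPM in Control and 250 and 278 CPM under TGFB1 (0.35 ± 0.08). Both TGFB1 libraries lay above both Control libraries for each. Of the 7, CCNE2 alone kept its call with each library left out in turn. Of the 42 genes of the S phase list 5 rose and 0 fell under TGFB1 (median 0.11). These were CCNE2, CDC6, RPA2, RRM2 and TYMS, all but RPA2 also on the G1/S list, so the lists are not independent. Over all non-primed cells the S phase list had 2 that rose and 4 that fell (median -0.09). The G1/S list had 3 that rose and 0 that fell there (median 0.07), beside 8.56% and 6.32% of all genes in that fit. Whether either list differs between the 2 sets of cells was not tested. Of cluster 1 cells, 57.5% and 60.0% were called S under TGFB1, and 54.3% and 53.4% in Control. Over all treatments, 148 of 177 pairs of gene and treatment kept their call in S-called cells alone. The part of the phase mix in the histone and G1/S changes was not tested.

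TGFBRi and PI3Ki called 0 genes of the G1/S list and 0 of the S phase list in either direction by edgeR, with medians of -0.02 and 0.12 for the first. Of the 52 genes of the G2M list, 1 rose (TUBB4B) and 2 fell (GAS2L3 and CKAP5) under TGFB1, beside 5.75% and 4.23% of all genes, 0 passed under TGFBRi and 0 under PI3Ki. Over all non-primed cells 26 of the 52 fell under PI3Ki, beside 6.22% of all genes, with a median of -0.22 against 0.007 inside cluster 1. The share of cells that the authors called G1 was 43.6% and 44.1% in the PI3Ki libraries, 44.1% in each TGFB1 library and 34.0% and 32.7% in Control.

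Of 14 cyclins and CDK inhibitors tested, 3 rose (CCNE1, CCNE2 and CDKN2C) and 1 fell (CDKN2A) under TGFB1, beside 5.75% and 4.23% of all genes, 1 rose and 0 fell under TGFBRi, beside 0.975% and 1.34%, and 1 rose and 1 fell under PI3Ki, beside 3.35% and 4.13%. CDKN2A, which encodes p16 and p14ARF, was at 264 and 281 CPM in Control and 173 and 171 CPM under TGFB1 (-0.68 ± 0.09, edgeR adjusted p = 5.28e-07). CDKN2C, which encodes p18, was at 12.3 and 15.5 CPM in Control and 17.9 and 18.2 CPM under TGFB1 (0.37 ± 0.12), and at 0.15 without Control r1. CDKN2B, the neighbour of CDKN2A that encodes p15, was at 7.03 and 7.88 CPM in Control and 9.47 and 11.4 CPM under PI3Ki (0.57 ± 0.14). CCND1, cyclin D1, was at 352 and 409 CPM in Control, rose to 428 and 519 CPM under TGFBRi (0.33 ± 0.08) and fell to 271 and 302 CPM under PI3Ki (-0.34 ± 0.08). GADD45A was the only 1 of 14 checkpoint and repair genes to pass in any treatment, falling under PI3Ki (-0.35 ± 0.10), where 4.13% of all genes fell. With each library left out in turn CDKN2A kept its call, while CDKN2C, CDKN2B, CCND1 and GADD45A did not.

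Among genes with a mean of at least 10 CPM, the largest rise under TGFB1 was that of PMEPA1 (chr20:57648392-57711536, minus strand), a feedback gene of TGF-beta signalling. It was at 3.28 and 4.90 CPM in Control, 79.0 and 68.9 CPM under TGFB1, 0.590 and 0.576 CPM under TGFBRi and 3.38 and 4.17 CPM under PI3Ki. The arms did not overlap apart from Control and PI3Ki, and the log2 change was 4.17 ± 0.13 under TGFB1 and -2.76 ± 0.31 under TGFBRi (edgeR adjusted p = 2.22e-23 and 2.2e-07). FN1 (chr2:215360440-215436073, minus strand) went from 39.2 and 61.0 CPM in Control to 285 and 274 CPM under TGFB1 (2.51 ± 0.12) and to 16.2 and 20.4 CPM under PI3Ki (-1.37 ± 0.13). IGFBP5, which binds insulin-like growth factors, went from 22.4 and 22.5 CPM to 112 and 67.7 CPM (1.97 ± 0.11) under TGFB1.

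The other 7 of the 10 largest rises under TGFB1 were MGP (2.05 ± 0.11) and AEBP1 (1.58 ± 0.08), both of the extracellular matrix, FCER1G (1.58 ± 0.12), S100A2 (1.51 ± 0.12), IGFBP7 (1.44 ± 0.14), CRYBG1 (1.33 ± 0.11) and TXNIP (1.32 ± 0.11). The 10 largest falls were smaller. ISG20, an exonuclease gene, went from 25.3 and 32.6 CPM to 8.09 and 16.8 CPM (-1.27 ± 0.14), and C11orf96 from 23.6 and 20.8 CPM to 10.3 and 9.09 CPM (-1.21 ± 0.12). FRMD4B, the most abundant of them, went from 434 and 391 CPM to 173 and 225 CPM (-1.07 ± 0.09). HPGD, which breaks down prostaglandins, ARRB1, a beta-arrestin, ACSS1, C3orf49, INKA1, ZCCHC24 and MIR3681HG fell by between 0.90 and 1.15 on the log2 scale, and MIR3681HG lost its call without TGFB1 r1.

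Of 18 genes of the TGF-beta response list tested in cluster 1, 10 rose and 0 fell under TGFB1 (median 0.43), beside 5.75% of all genes that rose. SKIL, a Smad corepressor, went from 4.17 and 5.08 CPM to 24.9 and 30.3 CPM (2.56 ± 0.13), and SMAD7, the inhibitory Smad, from 5.92 and 6.71 CPM to 10.1 and 14.1 CPM (0.91 ± 0.14). TGFBI was found only under TGFB1 beyond a trace, at 0.939 and 1.04 CPM against 0 and 0.0584 CPM in Control. Under TGFBRi 0 of the 18 rose and 6 fell, namely ID1, ID2, ID3, PMEPA1, SKIL and SMAD7, beside 1.34% of all genes. Under PI3Ki 4 rose, the 3 ID genes and SKIL, and FN1 fell, beside 3.35% and 4.13%. With each library left out in turn 5 of 10 calls were kept under TGFB1, 5 of 6 under TGFBRi (not SMAD7) and 4 of 5 under PI3Ki (not SKIL).

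The ID genes responded to both inhibitors, in opposite directions. ID3 (chr1:23557926-23559501, minus strand), a target of BMP signalling, was at 57.9 and 65.0 CPM in Control, 69.8 and 67.2 CPM under TGFB1, 5.47 and 5.33 CPM under TGFBRi and 160 and 164 CPM under PI3Ki. The log2 change was -3.48 ± 0.12 under TGFBRi and 1.47 ± 0.08 under PI3Ki (edgeR adjusted p = 2.12e-22 and 8.92e-16), and TGFB1 did not pass (adjusted p = 0.315). ID1 went from 16.6 and 18.2 CPM to 3.92 and 4.10 CPM under TGFBRi (-2.10 ± 0.14) and to 46.6 and 51.5 CPM under PI3Ki (1.57 ± 0.10). ID2 followed with -1.07 ± 0.15 and 0.98 ± 0.12. No library of one arm overlapped another among Control, TGFBRi and PI3Ki for any of the 3 genes.

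Beside the ID genes and PMEPA1, TGFBRi lowered the collagen genes COL9A3, from 79.0 and 76.4 CPM to 20.1 and 21.2 CPM (-1.90 ± 0.10), and COL6A5 (-1.62 ± 0.19), which lost its call without the replicate term. NAV2 (-1.23 ± 0.10), the proton pump subunit ATP6V0D2 (-1.22 ± 0.09), LINC01711 (-1.11 ± 0.12) and SH3BP1 (-1.08 ± 0.14) completed its 10 largest falls at a mean of at least 10 CPM. The rises at that level were smaller, the largest being S100A4, from 8.19 and 11.3 CPM to 16.6 and 22.1 CPM (1.0 ± 0.13), and BAALC, from 14.2 and 12.4 CPM to 24.3 and 25.3 CPM (0.91 ± 0.11). NUPR1 and TRIB3, both genes of the stress response, rose by 0.74 ± 0.09 and 0.66 ± 0.09. IGFBP2 went from 194 and 164 CPM to 309 and 264 CPM (0.70 ± 0.08). ARID5B, TXNIP, ANKS1A, C11orf96 and SNX24 rose by between 0.63 and 0.71, and TXNIP lost its call with DESeq2.

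Under PI3Ki the largest rise at a mean of at least 10 CPM was that of CST1 (chr20:23747562-23751268, minus strand), a secreted protease inhibitor, from 4.60 and 7.41 CPM to 28.3 and 49.6 CPM (2.76 ± 0.13, edgeR adjusted p = 6.46e-18). CST1 and HSPA1A have close paralogs with which they can share reads, so that their values are uncertain. APOD went from 9.67 and 7.88 CPM to 17.4 and 19.6 CPM (1.17 ± 0.13), and C11orf96 from 23.6 and 20.8 CPM to 52.9 and 40.4 CPM (1.13 ± 0.09). AL096706.1 (1.36 ± 0.10), LSR (1.04 ± 0.11), the heat shock gene HSPA1A (0.92 ± 0.09) and TXNIP (0.91 ± 0.11) were the others of the 10 beside the ID genes.

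The largest fall under PI3Ki at a mean of at least 10 CPM was that of DDIT4 (chr10:72273919-72276036, plus strand), which restrains mTORC1. It was at 108 and 111 CPM in Control, 63.3 and 65.0 CPM under TGFB1, 120 and 117 CPM under TGFBRi and 27.5 and 29.7 CPM under PI3Ki (-1.87 ± 0.09, edgeR adjusted p = 6.46e-18). Its replicates lay within a few CPM of each other in every arm. BNIP3, a mitophagy receptor, went from 155 and 177 CPM to 67.8 and 73.7 CPM (-1.16 ± 0.08), and ME1, the cytosolic malic enzyme, from 37.1 and 43.1 CPM to 14.5 and 15.6 CPM (-1.35 ± 0.09). IGFBP7 (-1.82 ± 0.19), FRZB (-1.60 ± 0.16), S100A4 (-1.40 ± 0.17), DIPK1C (-1.39 ± 0.14), FN1, IGFBP5 (-1.19 ± 0.14) and CITED1 (-1.04 ± 0.11) were the rest of the 10.

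**Figure D5:**
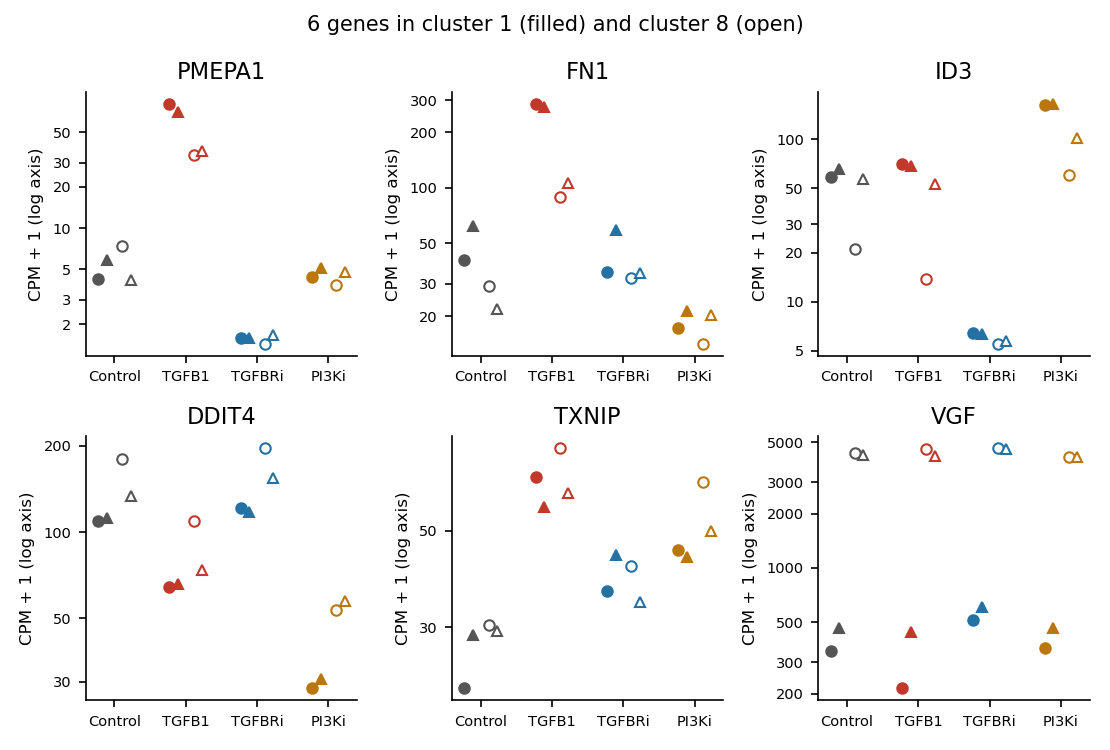
CPM plus 1 (vertical log axis, with its own range in each panel) of 6 genes in cluster 1 cells (filled) and cluster 8 cells (open), with 1 point per library. PMEPA1, FN1 and ID3 reach higher levels in cluster 1 than in cluster 8 where they rise, DDIT4 is lower in cluster 1 in every library, and VGF lies at 214 to 607 CPM in cluster 1 and 4109 to 4622 CPM in cluster 8 in all arms.

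TXNIP rose in cluster 1 under all 3 treatments, from 20.7 and 27.8 CPM in Control to 65.5 and 55.7 CPM under TGFB1, 35.4 and 42.9 CPM under TGFBRi and 44.2 and 42.5 CPM under PI3Ki, 3 comparisons that share the same Control libraries. It belongs to a list of FOXO targets and PI3K feedback genes, of which 2 of 17 rose and 2 fell under PI3Ki (TXNIP and ERBB3, IRS1 and IRS2), beside 3.35% and 4.13% of all genes. Under TGFB1 2 rose and 2 fell, beside 5.75% and 4.23%, and under TGFBRi 2 rose and 1 fell, beside 0.975% and 1.34%. IRS1, an adaptor of insulin signalling, went from 2.80 and 3.21 CPM to 0.811 and 1.54 CPM under PI3Ki (-1.24 ± 0.25), a call lost without PI3Ki r1. With each library left out in turn TXNIP kept its call under all 3 treatments. ERBB3 kept its call under TGFB1 and TGFBRi but not under PI3Ki, and the other calls of this list were each lost at least once.

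The sterol list rose in part under both inhibitors. Of its 16 genes 4 rose and 0 fell under TGFBRi (among them HMGCS1, SQLE and INSIG1, median 0.21), beside 0.975% of all genes, and 8 rose and 1 fell under PI3Ki (median 0.22), beside 3.35% and 4.13%. HMGCS1 went from 32.0 and 29.5 CPM to 48.1 and 37.4 CPM under TGFBRi (0.50 ± 0.10) and to 48.3 and 50.3 CPM under PI3Ki (0.76 ± 0.09). SCD, which desaturates fatty acids, went the other way under PI3Ki, from 308 and 303 CPM to 233 and 221 CPM (-0.36 ± 0.08). Under TGFB1 0 of the 16 rose and 2 fell, SCD among them, beside 5.75% and 4.23% of all genes. With each library left out in turn HMGCS1 and SQLE kept their calls under PI3Ki, the other calls were each lost at least once, and HMGCS1 under TGFBRi was at 0.30 without TGFBRi r1.

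Of 14 melanocyte genes tested, 6 rose and 1 fell under PI3Ki (median 0.22), beside 3.35% and 4.13% of all genes. PMEL, a melanosome matrix protein, went from 2517 and 2238 CPM to 3335 and 3619 CPM (0.62 ± 0.08), and TYR, the rate-limiting enzyme of pigment synthesis, from 60.6 and 66.1 CPM to 82.8 and 80.7 CPM (0.44 ± 0.08). RAB27A, EDNRB, MLANA and CDK2 also rose, and CDK2 overlaps PMEL in the genome, so their reads may not be fully separable. DCT, a further pigment enzyme, went from 376 and 404 CPM to 233 and 263 CPM (-0.59 ± 0.08). Under TGFB1 2 rose (TRPM1 and EDNRB) and 2 fell (DCT and MLANA), beside 5.75% and 4.23%, and under TGFBRi 0 of 14 passed with edgeR. PMEL and DCT under PI3Ki and TRPM1 and DCT under TGFB1 kept their calls with each library left out in turn, and the others did not.

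Counts of some genes that mark the primed state also differed between arms in these non-primed cells. Of 17 tested, 7 rose and 1 fell under TGFB1, beside 5.75% and 4.23% of all genes, 2 rose and 1 fell under TGFBRi, beside 0.975% and 1.34%, and 0 rose and 6 fell under PI3Ki, beside 3.35% and 4.13%. With each library left out in turn 3 of the 8 calls were kept under TGFB1 (FGF1, FN1 and SERPINE2), 0 of 3 under TGFBRi and 2 of 6 under PI3Ki (FN1 and VEGFA). AXL, a receptor tyrosine kinase, was at 0.0528 and 0.584 CPM in Control and 0.650 and 1.39 CPM under TGFB1 (1.67, and 1.0 without Control r1 and 3.73 without Control r2). JUN went from 2.75 and 3.97 CPM to 8.74 and 8.32 CPM under TGFB1 (1.36 ± 0.21) and 4.45 and 9.79 CPM under TGFBRi (1.06 ± 0.21), calls that were lost without TGFB1 r1 (0.93) and without TGFBRi r2 (0.50). EGFR, used by the study to sort primed cells, went from 1.85 and 2.10 CPM to 0.541 and 0.951 CPM under PI3Ki (-1.31 ± 0.31). NGFR, the other sort marker, was called lower under PI3Ki, but Control r1 and r2 differed widely, at 0.106 and 2.45 CPM, and the change of -1.90 turned to 0.42 without Control r2 and did not pass without PI3Ki r2 or without the replicate term. VGF, on this list as well, passed as lower under TGFB1 (-0.37 ± 0.10, edgeR adjusted p = 0.0158) and as higher under TGFBRi (0.51 ± 0.10, edgeR adjusted p = 0.00194), on the values per library given above. The first call was lost with DESeq2, without the replicate term, without Control r1 and without TGFB1 r1 (-0.07), and the second with DESeq2, without the replicate term and without TGFBRi r1 (0.33). It was a gene by which the clusters differed, so that a shift in the border toward cluster 8 and a change inside the cells cannot be told apart.

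Droplets also take up RNA freed from other cells of the same library, and the libraries differed in primed cells. These numbered 1577 and 1757 under TGFB1 (29.1% and 31.3% of cells), and made up 0.647% to 4.47% of the other libraries. In the primed cells of the TGFB1 libraries FN1 was at 8474 and 8855 CPM, PMEPA1 at 1115 and 1145 CPM and AXL at 36.6 and 46.9 CPM. No cell type known to lack these genes was sampled, so the non-primed cluster with the lowest level, of those with at least 50 cells in a library, was taken for comparison. FN1 was lowest in cluster 9, at 69.4 and 78.3 CPM, and PMEPA1 in cluster 5, at 28.2 and 21.5 CPM, both below the 285 and 274 CPM and the 79.0 and 68.9 CPM of cluster 1. In Control the lowest levels were 18.9 and 14.6 CPM for FN1 and 1.37 and 1.97 CPM for PMEPA1. AXL was lowest at 0 and 0.388 CPM under TGFB1. How much of these levels in cluster 1 was free RNA was not tested.

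Few genes passed a test of the difference in response between cluster 1 and cluster 8. A model with library as block and a term for the difference between the clusters called 15 of 13766 genes for TGFB1 (0.109%), 1 for TGFBRi (0.00726%) and 3 for PI3Ki (0.0218%), with 897, 565 and 825 genes at an unadjusted p under 0.05. No histone gene was among those called, which at so low a share over all genes does not show equal responses. Of 56 histone genes, 3, 4 and 9 had an unadjusted p under 0.05 for TGFB1, TGFBRi and PI3Ki (edgeR). For PI3Ki the median difference over the 56 was -0.12, with 37 below 0. Cluster 8 had between 62 and 734 cells per library, and these counts moved with single libraries. For TGFB1 the count was 7 without Control r1, 28 without Control r2, 3 without TGFB1 r1, 37 without TGFB1 r2 and 25 without either TGFBRi library. The counts for TGFBRi and PI3Ki also moved with the library left out. With treatment and replicate terms in place of the library block the 3 counts were 1, 0 and 0.

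AEBP1 was the clearest of these genes. In cluster 1 it was at 151 and 143 CPM in Control and 452 and 435 CPM under TGFB1, and in cluster 8 at 131 and 121 CPM and 226 and 241 CPM, so that both clusters rose and cluster 1 rose by 0.68 ± 0.09 more on the log2 scale (edgeR adjusted p = 3.01e-06). IGFBP5 reached 112 and 67.7 CPM in cluster 1 and 37.0 and 22.1 CPM in cluster 8 under TGFB1 (difference 1.13 ± 0.23). It was 0.61 and did not pass without Control r1, and it did not pass without TGFB1 r1 either. SERPINE2, a protease inhibitor, had a difference of 0.72 ± 0.12 in the same direction, which was 0.42 and did not pass without Control r1. Under PI3Ki CST1 had a difference of 1.18 ± 0.21, with 28.3 and 49.6 CPM in cluster 1 and 21.4 and 43.0 CPM in cluster 8, which started higher in Control at 8.54 and 13.4 CPM. Under TGFBRi the 1 gene was SLC27A3, a fatty acid transport protein gene, which was lower by a further 0.46 ± 0.08 in cluster 1. Of all 19 differences 2, those of AEBP1 and NQO1, kept their call with each library left out in turn.

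Set beside cluster 0, which is mostly made of G1-called and S-called cells, more responses passed the test. In the PI3Ki libraries cluster 0 held 877 and 996 cells and cluster 8 held 186 and 306. In the TGFB1 libraries they held 119 and 115, and 62 and 125. The number of calls against each was therefore not compared at equal depth, and which cluster responded more like cluster 1 was not tested. The same test called 87 of 14723 genes for TGFB1 (0.591%), 5 for TGFBRi (0.034%) and 346 for PI3Ki (2.35%). Of 57 histone genes, 1 was among them for TGFB1 (HIST1H2AC), 0 for TGFBRi and 5 for PI3Ki (HIST1H1C, HIST1H1D, HIST1H1E, HIST1H2AC and HIST2H2AC), all with a more negative change in cluster 1. HIST1H1D changed by -0.37 in cluster 1 and -0.12 in cluster 0 under PI3Ki (difference -0.26 ± 0.05, edgeR adjusted p = 0.000109). HSPA1A rose in cluster 1 under PI3Ki and had a log2 change of -0.18 in cluster 0 (difference 1.09 ± 0.11). PMEPA1 under TGFB1 had a change of 4.17 in cluster 1 and 3.07 in cluster 0. Several of these differences depend on which clusters are set beside cluster 1, as given next.

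Cluster 0 itself changed in size, from 1798 and 1173 cells in Control to 119 and 115 cells under TGFB1, where cluster 3 held 2182 and 1619 cells, and under PI3Ki cluster 6 held 1104 and 1135 cells against 129 and 39 in Control, so that which cells stayed in cluster 0 and how its genes responded cannot be told apart. With clusters 0, 3 and 6 summed, an alternative chosen after seeing these cell numbers, the test called 1464 of 15127 genes for TGFB1 (9.68%), 7 for TGFBRi (0.0463%) and 1463 for PI3Ki (9.67%), and of 57 histone genes 26 had a lower and 0 a higher change in cluster 1 for TGFB1, 0 were called for TGFBRi, and 4 were lower and 6 higher for PI3Ki. Against this sum the TGFB1 differences of PMEPA1 (-1.31), FN1 (-1.81) and AEBP1 (-0.41) turned negative and that of FRMD4B (0.42) turned positive. Of the 5 histone genes under PI3Ki, HIST1H2AC (-1.08) passed, while HIST1H1D (-0.0018), HIST1H1E (-0.037), HIST2H2AC (-0.052) and HIST1H1C (-0.16) did not, with edgeR adjusted p from 0.0785 to 0.99. HSPA1A under PI3Ki (0.93) passed again. Leaving out PI3Ki r1 moved the count against cluster 0 to 181 for TGFB1 and to 43 for TGFBRi, leaving out PI3Ki r2 moved it to 132, 37 and 195 for the 3 treatments, leaving out Control r1 moved it to 56 for TGFB1 and 115 for PI3Ki, and leaving out Control r2 to 189 for PI3Ki. The count for TGFBRi was 1 without Control r2, 19 and 20 without TGFB1 r1 and r2, and 0 and 3 without TGFBRi r1 and r2. With treatment and replicate terms in place of the library block the counts were 6, 1 and 9.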

How the data were processed

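Droplet scRNA-seq of WM989 cells was aligned to hg38 and counted with Cell Ranger per the labels (version not given in the sources used here). The deposited matrix holds UMI counts per gene and cell as the authors made them, for 36601 genes. The authors' cell table, made with Seurat after removal of low-quality and gene-rich cells, gives cluster, primed state and phase, the S and G2M score, and the percent of mitochondrial UMIs as deposited. No doublet caller was run here. Cluster 1 and the gene lists were chosen with earlier results of these data known.

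Counts were summed per library and cluster. Cluster levels were compared as the log2 ratio of CPM plus 1 for genes of at least 20 CPM in either group, without a test, and the 15 genes at each end with 1 direction in all 8 libraries were named. Treatment effects came from edgeR 4.0.16 (R 4.3.3; TMM, quasi-likelihood, treatment and replicate terms, Benjamini-Hochberg adjusted p under 0.05), and the 10 largest called changes per direction at a mean of at least 10 CPM were named. Other genes named belong to the 18 lists, or differed between clusters. DESeq2 1.42.0, RLE factors, no filter, left-out libraries, equal cell numbers, S-called cells and other cell sets were tried. So were fits without the replicate block or, for differences between clusters, without the library block. The tests were tested on simulated data, drawn at the mean levels and library sizes of cluster 1 without replicate or library effects. For the difference between clusters both clusters were drawn so, and the lower depth of cluster 8 was not simulated. The 4 arms of a replicate came from 1 starting well, and the replicates were run in parallel, per the methods. Deviations from group means of same-numbered libraries correlated at -0.02 to 0.39 over 7780 genes. Cells were thinned to 5000 UMIs (seed 1), and 33 of 40021 cells were shallower. Shares have exact Clopper-Pearson 95% intervals. WM983B cells and chromatin peaks were not used here. Values of a few genes of these lists are not reported here.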

Additional observations from a re-analysis of the deposited data

Results flagged for a closer look

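Treatment effects that differed between cluster 1 and another cluster were picked out by the test of the difference itself (edgeR quasi-likelihood test with Benjamini-Hochberg adjustment), and each value below is the log2 effect in cluster 1 minus that in the other cluster. Against cluster 8, 15 genes differed under TGFB1. The effect was higher in cluster 1 for IGFBP5 (1.13), ELFN1-AS1 (0.97), EEF1A2 (0.75), SERPINE2 (0.72), AEBP1 (0.68), FRMD6 (0.51), CTSB (0.48), RBBP4 (0.47), S100A1 (0.42) and UPP1 (0.42). It was lower for CSK (-0.84), NQO1 (-0.54), FRMD4B (-0.41), MLANA (-0.35) and NPM1 (-0.29). RBBP4, which encodes a histone chaperone, had an effect of 0.14 in cluster 1 and -0.31 in cluster 8. Under TGFBRi 1 gene differed, SLC27A3 (-0.46), and under PI3Ki 3 did, CST1 (1.18), HES6 (0.51) and APOE (0.44). AEBP1 and NQO1 kept their call with each library left out in turn, and the other 17 did not.

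Against cluster 0, 87 genes differed under TGFB1, 5 under TGFBRi and 346 under PI3Ki. Among the histone genes and the 10 largest changes per direction under the same treatment, the TGFB1 effect was higher in cluster 1 for PMEPA1 (1.13), AEBP1 (0.86) and FN1 (0.71) and lower for HIST1H2AC (-0.83) and FRMD4B (-0.46), and the TGFBRi effect was lower for ID3 (-0.99). The PI3Ki effect was higher in cluster 1 for HSPA1A (1.09), LSR (0.56), AL096706.1 (0.54), C11orf96 (0.37) and BNIP3 (0.27). It was lower for FN1 (-0.97), HIST1H2AC (-0.74), IGFBP5 (-0.57), DDIT4 (-0.52), HIST1H1E (-0.28), HIST1H1C (-0.28), HIST1H1D (-0.26) and HIST2H2AC (-0.24). Cluster 0 held 119 and 115 cells in the TGFB1 libraries. Against clusters 0, 3 and 6 together the sign turned for PMEPA1 (-1.31), AEBP1 (-0.41), FN1 (-1.81) and FRMD4B (0.42) under TGFB1 and for C11orf96 (-0.25) under PI3Ki, and HIST1H1E (-0.037), HIST1H1C (-0.16), HIST1H1D (-0.0018), HIST2H2AC (-0.052) and AL096706.1 (0.16) under PI3Ki no longer passed. The others in this paragraph passed with the same sign.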

How the results depend on the processing

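DESeq2 called 558, 146 and 412 genes in cluster 1 for TGFB1, TGFBRi and PI3Ki in place of 1381, 321 and 1036, the fit without the replicate block 873, 146 and 560, and S-called cells alone 211 for TGFBRi. Leaving out single libraries gave 321 to 1770, 166 to 468 and 242 to 1448. For the difference from cluster 8 (15, 1 and 3) the counts were 1, 0 and 0 without the library block, 24, 6 and 13 with no filter on low counts, and 3 to 37, 1 to 9 and 0 to 40 with a library left out, a setting chosen after seeing the data, as were the left-out libraries and the summed clusters of the next comparison. For the difference from cluster 0 (87, 5 and 346) they were 6, 1 and 9 without the library block, 139 and 14 for TGFB1 and TGFBRi with no filter, 1464 and 1463 for TGFB1 and PI3Ki against clusters 0, 3 and 6 together, and 56 to 181, 0 to 43 and 115 to 474 with a library left out. Called histone genes in all non-primed cells (19, 2 and 34) were 4, 0 and 6 without the replicate block, 1 for TGFBRi over all cells, and 6 to 26, 0 to 19 and 4 to 35 with a library left out. The share of cluster 1 had an exact permutation p of 0.0417 among S-called cells and 0.0417 with cluster 8 added. Its mean log2 ratio to Control over non-primed cells, over S-called cells and with cluster 8 added was -0.23, -0.18 and -0.82 for TGFB1 and -0.26, -0.055 and -0.16 for PI3Ki, and 0.13 with cluster 8 added for TGFBRi. With a replicate left out it was -0.78 to -0.62, -0.34 to -0.07 and -0.24 to -0.21. With thinned sums 1 gene was over 1 log2 unit above cluster 8 in place of 0. NGFR under PI3Ki turned from -1.90 to 0.42 without Control r2, and ran from -2.20 to 0.42 with a library left out. Of 181 gene and treatment pairs, 132 kept their call without the replicate block, and of 175 with a DESeq2 value 119 did. The cause of these changes was not tested. Each arm had 2 replicates, which left 3 residual degrees of freedom, and cluster 8 had 62 to 734 cells per library.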

Other observations

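An experiment on untreated WM989 cells, clustered separately by the authors, also held a cluster rich in histone transcripts. That cluster, likewise numbered 1, had 2049 cells, of which 67.1% were called S, and a summed histone level of 3017 CPM, against 530 to 1960 CPM in the other clusters of that experiment. HIST1H1A was at 54.0 CPM in it, HIST1H1B at 320 CPM and HIST2H2AC at 110 CPM, while HIST1H3D was listed at 0 in every cluster of that experiment. VGF was at 884 CPM. The cluster numbers of both experiments were given independently, and levels were not compared between them by a test.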
